A study of Mus musculus with 12 samples.

Results

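The mitochondrial ribosomal protein genes encode the proteins of the mitoribosome, the separate ribosome that mitochondria keep for the few messages written in their own DNA. The 78 genes described here were all rows of the expression table whose name begins with Mrpl or Mrps followed by a digit, without a pseudogene suffix, and which reached 1 FPKM in at least 3 of the 12 libraries. They were 78 of 29838 genes in the table and 78 of the 12994 genes that passed the same expression rule and were tested. No gene of that name missed the expression rule, and 4 rows with a -ps suffix were left out: Mrps36-ps1, Mrpl23-ps1, Mrpl48-ps and Mrps36-ps2. Of the excluded rows, Mrpl48-ps reached 1 FPKM in 1 library, Mrps36-ps1 in 4, Mrps36-ps2 in 9 and Mrpl23-ps1 in 12. FPKM counts fragments relative to transcript length and library size, so it is a share of a library's RNA corrected for transcript length, not a number of molecules per cell.

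The RNA came from bone marrow of wild type male C57BL/6 mice aged 8 weeks. Erythroblasts depleted of CD45+ cells were sorted into 4 stages of terminal differentiation, with 3 libraries of each. Proerythroblasts (Pro) were taken as CD44 high, Ter119 low cells, and basophilic (Baso), polychromatic (Poly) and orthochromatic (Ortho) erythroblasts by falling CD44 and cell size. All mice were untreated, no allele was altered in any group, and the sources used here do not say whether libraries of a stage came from separate animals or pools. The p-values below therefore measure the spread between these libraries, which may be partly technical.

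Mitoribosomes are built from a large and a small subunit whose protein parts are made from nuclear genes in the cytosol and imported, while the rRNA is transcribed from mitochondrial DNA. Their known task is to make the membrane-embedded core proteins of the respiratory chain and of ATP synthase. In erythroid cells mitochondria also carry out the first and last steps of heme synthesis, and they are removed by mitophagy as the reticulocyte matures. The names of the proteins are historical: the products of Mrps18a and Mrps30 sit in the large subunit, and the product of Mrps36 is no part of the mitoribosome but a subunit of the 2-oxoglutarate dehydrogenase complex. By position the set held 51 large subunit genes, 26 small subunit genes and Mrps36.

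The erythroid genes Slc4a1, Alas2, Epb42, Klf1, Gata1, Tfrc, Epor, Hba-a1, Hbb-bs, Kit and Cd44 were at 1 FPKM or more in every library of all stages. The hemoglobin genes grew from 8.45% ± 1.95 (SD, n = 3) of all FPKM among Pro libraries to 35.1% ± 1.79 among Baso, 36.6% ± 1.56 among Poly and 49.6% ± 2.74 among Ortho libraries, which lowers the FPKM of every other gene. Neutrophil markers were present as well: 12 of 12 were at 1 FPKM or more in every library, and together they reached 7412 to 9241 FPKM per Pro library, 12722 to 14877 per Baso library, 16356 to 19379 per Poly library and 14601 to 18050 per Ortho library. Of 10 macrophage markers 4 reached that level in every library of each stage (sums of 29.9 to 74.8 FPKM, Marco at 0 in Pro, Baso and Poly). B cell markers summed to 84.8 to 141 FPKM in Pro and 203 to 282 in Ortho (9 and 10 of 10 present). T and NK cell markers summed to 22.2 to 45.5 over the series (2 or 3 of 9 present, Cd3e at 0 in Pro and Ortho, Cd3g at 0 in Poly and Ortho). Megakaryocyte markers summed to 77.3 to 137 in Pro and 41.6 to 52.5 in Ortho (9 and 6 of 9 present). The study's sort stained for CD45, CD11b and GR1 and took cells negative for all of them, a gate meant to exclude neutrophils and other leukocytes. The purity of the sorted cells was not tested here. The part of other cells in the results below was not tested. In sorted bulk samples, fewer cells of a type and less RNA per cell cannot be told apart. Absolute depth was unknown: the step between the lowest values of each library gave depths of 61.6% to 79.6% of that of Pro replicate 1.

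The genes of the mitoribosome were at their highest in Pro and much lower from Baso onwards. The 78 genes summed to 2771, 2421 and 2746 FPKM in the 3 Pro libraries, 1240, 1408 and 1403 in Baso, 1165, 1210 and 1172 in Poly, and 1015, 1049 and 1061 in Ortho. The Pro libraries lay above all others and the Ortho libraries below all others. The family's share of all FPKM was 0.511% ± 0.0455 (SD, n = 3) for Pro, 0.230% ± 0.0155 for Baso, 0.201% ± 0.00304 for Poly and 0.155% ± 0.00412 for Ortho. With the hemoglobin genes left out of the sum the shares were 0.558%, 0.354%, 0.317% and 0.309%. The order of Pro and Baso did not depend on hemoglobin, whereas Poly (0.309% to 0.327%) and Ortho (0.293% to 0.320%) then overlapped. These sums are a description and carry no test.

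**Figure D1:**
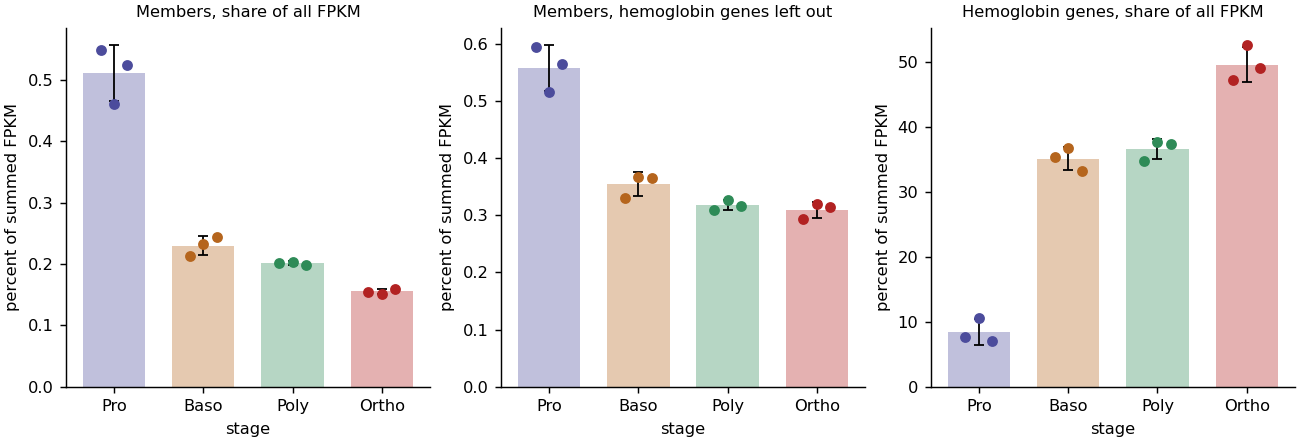
Share of the summed FPKM taken by the 78 mitochondrial ribosomal protein genes, with and without the hemoglobin genes in the sum, and by the hemoglobin genes themselves, in percent. Points are libraries, bars are means of 3 and whiskers are SD. The Pro libraries stand above all others in both member panels, and Poly and Ortho overlap once hemoglobin is left out.

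In FPKM as deposited, every one of the 78 genes had its highest stage mean in Pro, against 54.8% of all genes tested. The order counts in this paragraph were made on that scale alone. With the hemoglobin genes left out, some members lay above Pro by value at a later stage, as given below. In 77 of the 78 each Pro library lay above each Ortho library (53.6% of genes tested), and in 69 each Pro library lay above all 9 libraries of the later stages (37.0%). The exception in the first count was Mrpl58, whose product ICT1 is a peptidyl-tRNA hydrolase that rescues stalled mitoribosomes: it stood at 28.9, 21.1 and 11 FPKM in Pro and at 7.07, 15.1 and 7.84 in Ortho. The stage means ran Pro, Baso, Poly, Ortho from high to low in 35 genes (24.7% of genes tested). The lowest mean was in Ortho for 47 (44.8%), in Poly for 22 (10.7%) and in Baso for 9 (18.6%).

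**Figure D2:**
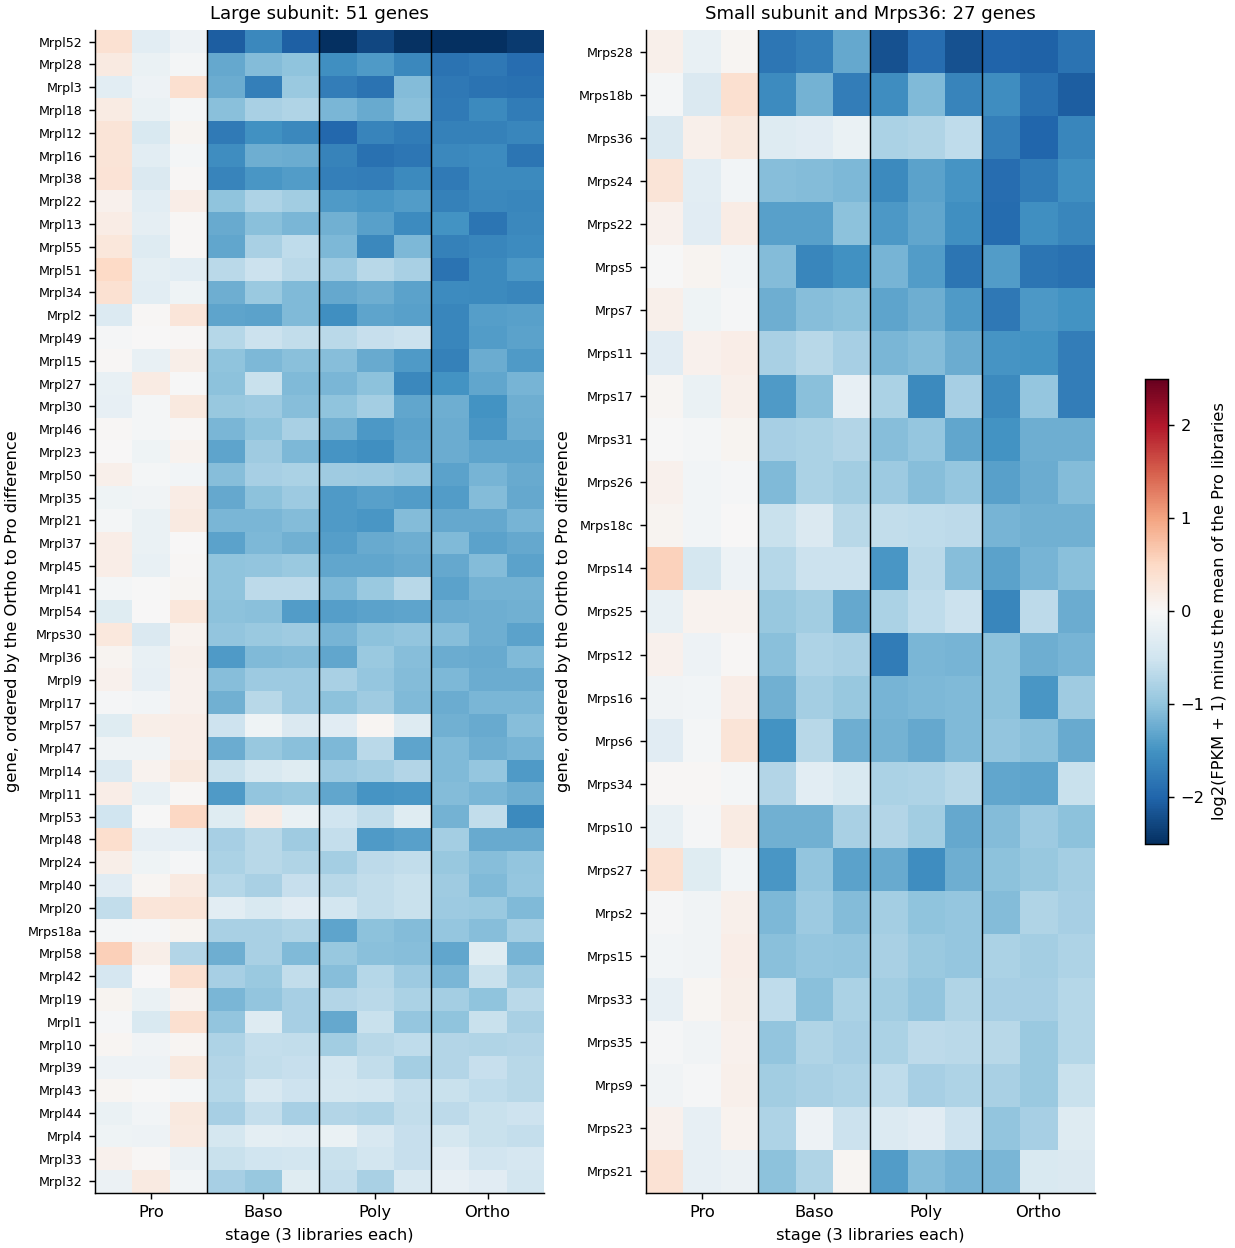
Each row is one gene and each column one library, coloured by log2(FPKM + 1) minus the mean of the 3 Pro libraries. Genes are ordered by the difference between Ortho and Pro, with the large subunit on the left and the small subunit with Mrps36 on the right. The step from Pro to Baso is visible in most rows, Mrpl52 and Mrps28 head the 2 panels, and Mrpl32 and Mrps21 close them.

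The levels within the family spanned more than an order of magnitude, which FPKM allows to be compared because it is scaled by length. In Pro the stage means ran from 6.19 FPKM (Mrps35) to 151 (Mrpl52) with a median of 28.0, and in Ortho from 2.41 (Mrpl47) to 54.7 (Mrpl33) with a median of 11.1. Over the 12 libraries the highest means were those of Mrpl52 (60.7 FPKM), Mrpl33 (56.7), Mrpl18 (55.3), Mrpl28 (49.0) and Mrpl34 (49.0). The lowest were Mrpl47 (3.62), Mrps35 (3.93), Mrpl17 (4.08), Mrpl1 (4.17) and Mrpl35 (4.49). The order changed at the top: Mrpl52 led in Pro, Mrpl18 led in Baso at 52.5 FPKM, and Mrpl33 led in Poly at 49.6 and in Ortho.

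Baso, Poly and Ortho were each compared with Pro, and the steps Poly against Baso and Ortho against Poly place the changes in time. Differences are given on the log2(FPKM + 1) scale, which understates the change of low genes, and a gene was called when its limma p, adjusted over all 12994 genes, was under 0.05. All 78 genes differed somewhere among the 4 stages by the moderated F test, as did 78.4% of genes tested. The 3 comparisons with Pro share the Pro libraries and are not independent of each other.

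From Pro to Baso 72 of 78 genes fell and none rose, where 42.1% of genes tested fell and 14.9% rose. The median difference of the members was -0.93, beside -0.23 for all genes tested, and 31 members fell by at least 1 on the log2 scale (8.54% of genes tested). In Poly against Pro 75 members were lower and none higher (42.7% and 23.3% of genes tested), 45 of them by at least 1 (12.8%), with a median of -1.07 beside -0.20. In Ortho against Pro 76 were lower and none higher (53.2% and 22.7%), 56 of them by at least 1 (23.8%), with a median of -1.21 beside -0.42. The 2 genes not called in Ortho against Pro were Mrpl32 and Mrps21. By limma's unadjusted p under 0.05, too, 0 members were higher than Pro at any later stage, against 16.9%, 24.6% and 23.4% of genes tested in Baso, Poly and Ortho.

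The size of these falls depended on how the hemoglobin share was handled, and 5 of the members' differences from Pro changed sign with it: those of Mrpl53 and Mrps36 in Baso, Mrpl57 in Poly, and Mrpl32 and Mrpl33 in Ortho. With the hemoglobin genes removed and the rest rescaled, 60 members were lower in Baso, 66 in Poly and 67 in Ortho, against 24.4%, 27.4% and 34.8% of genes tested. No member was higher, against 27.1%, 35.5% and 34.3%. The medians were then -0.63, -0.75 and -0.75, and those of all genes 0.03, 0.08 and -0.03. Falls of at least 1 were left in 7, 20 and 20 members (3.24%, 5.71% and 8.88% of genes tested). The scaling thus moved the median of all genes in Ortho against Pro from -0.42 to -0.03. The median of the members lay below it in both, while Mrpl32 and Mrpl33 lay above it.

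After Baso the family moved little. Between Baso and Poly 5 members fell and none rose (5.77% and 6.58% of genes tested), with a median of -0.15 beside 0.03, and none fell by 1 or more (0.454% of genes tested). By limma's unadjusted p under 0.05, 18 were lower and 0 higher (12.4% and 16.9% of genes tested). The 5 called were Mrpl22, Mrpl28, Mrps18a, Mrps28 and Mrps36. Same-numbered libraries of Baso, Poly and Ortho deviated together, and when their number entered a model of these 3 stages as a replicate block, 13 members fell between Baso and Poly (9.44% of genes tested). The Poly to Ortho counts that follow and the contrast of steps further below carry no such block. Between Poly and Ortho 11 members fell and none rose (21.7% and 4.43% of genes tested), with a median of -0.12 beside -0.08. By limma's unadjusted p under 0.05, 19 were lower and 1 higher (27.2% and 7.47% of genes tested). With the hemoglobin genes left out, 6 fell and 4 rose (16.2% and 9.54% of genes tested) and the median turned to 0.010. These small counts changed when single libraries were left out, also libraries of stages outside the step. For Baso to Poly 1 member was left without Baso replicate 2 or 3 or Poly replicate 1 or 3, and 2 without Poly replicate 2 or Ortho replicate 1 or 3, while 11 were called without Pro replicate 1. For Poly to Ortho 6 were left without Poly replicate 2 and 7 without Ortho replicate 3. The largest rise between Baso and Poly was that of Mrps25, a small subunit protein, at 0.38 (adjusted p = 0.25). Mrps25 shares exon sequence with Nr2c2 on the opposite strand, which had a mean of 11.9 FPKM.

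The subunits moved alike. In Baso against Pro 48 of 51 large subunit genes and 24 of 26 small subunit genes fell (42.1% of genes tested). The medians were -0.94 and -0.96. In Ortho against Pro the counts were 50 of 51 and 25 of 26 (53.2%), with medians of -1.22 and -1.16. Grouped by ancestry, the 47 proteins with a counterpart in bacterial ribosomes had a median of -0.99 in Baso against Pro and the 30 found in mitochondrial ribosomes alone had -0.82; in Ortho against Pro the medians were -1.21 and -1.18. No test was made between these groups. Leaving out the 21 members that share exon sequence with another gene of at least 1 FPKM gave medians of -0.94, -1.07 and -1.21 for Baso, Poly and Ortho against Pro.

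The cytosolic ribosome fell beside the mitochondrial one. The calls and medians for the cytosolic genes are for FPKM as deposited, which the growing hemoglobin share lowers here as well. Of 75 cytosolic ribosomal protein genes 71 fell from Pro to Baso (42.1% of genes tested), with a median of -0.96. In Ortho 74 of them were lower than in Pro (53.2%), with a median of -1.30. Their summed FPKM was 28.1 ± 2.11 times that of the mitochondrial set in Pro, 27.9 ± 1.03 times in Baso, 25.7 ± 0.519 times at the Poly stage and 28.2 ± 0.287 times at the Ortho stage (SD, n = 3). The ratio thus stayed between 25.1 and 30.0 in all 12 libraries while both sums dropped. Between Baso and Poly 27 of the 75 cytosolic genes fell, against 5 of the 78 mitochondrial ones (5.77% of genes tested). The difference between the sets was not tested.

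The member that changed most was Mrpl52, which encodes a large subunit protein without a bacterial counterpart (ENSMUSG00000010406, chr14:54426909-54429756, plus strand, GRCm38). It stood at 193, 124 and 137 FPKM in Pro, 34.8, 48.0 and 35.4 in Baso, 25.7, 29.9 and 26.2 in Poly and 23.4, 23.7 and 27.6 in Ortho. No Pro library overlapped any later one, and Ortho kept 16.5% of the Pro mean. The difference between Ortho and Pro was -2.53 (SE 0.16, adjusted p = 1e-07), and -1.90 (adjusted p = 4.5e-06) was already present in Baso.

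Mrps28, a small subunit protein, followed. It was at 49.5, 39.4 and 46.8 FPKM in Pro, 12.2, 13.2 and 17.9 in Baso, 9.21, 11.3 and 9.16 in Poly and 10.5, 10.3 and 11.8 in Ortho. The Pro libraries stood clear of the rest and Ortho kept 24.0% of the Pro mean. Its difference was -1.96 (SE 0.14, adjusted p = 2.1e-07) in Ortho against Pro, of which -1.60 came with the first step.

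Mrpl28, a large subunit protein related to bacterial L28, fell in every step. Its mean went from 95.2 ± 13.8 FPKM (SD, n = 3) in Pro to 43.1 ± 4.50 at the Baso stage, 32.4 ± 2.24 at the Poly stage and 25.5 ± 1.10 at the Ortho stage. The steps were -1.12, -0.40 and -0.33, with adjusted p of 8.6e-06, 0.038 and 0.041. Mrpl22, a large subunit protein near the exit tunnel, had the clearest fall between Baso and Poly, from 19.1, 22.7 and 21.1 FPKM to 14.1, 13.7 and 14.3 (-0.54, adjusted p = 0.011).

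Among the other strong fallers in Ortho against Pro were Mrpl3 (-1.84), whose bacterial relative L3 lies near the peptidyl transferase centre, Mrps18b (-1.82), Mrps24 (-1.73) and Mrpl18 (-1.71), the relative of the 5S rRNA binding protein L18. Their Ortho means were 24.8%, 25.4%, 28.8% and 29.8% of the Pro means. Mrpl18 shares exon sequence with Tcp1 on the opposite strand and Mrps24 with Urgcp on the same strand, and reads from such pairs could not be told apart with certainty.

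The members that changed least kept between 59.0% and 77.7% of their Pro mean. Mrpl32, whose protein is matured by the m-AAA protease before it joins the large subunit, was at 7.12, 9.53 and 7.63 FPKM in Pro, 4.09, 3.70 and 6.31 in Baso, 4.98, 4.13 and 5.84 in Poly and 6.86, 6.41 and 5.61 in Ortho. Each Pro value lay above each Ortho value, yet the difference of -0.31 (95% interval -0.69 to 0.07) did not pass the test (adjusted p = 0.12). It was below Pro in Baso by -0.69 (adjusted p = 0.0051).

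Mrpl33, another large subunit protein with a bacterial relative, was at 77.8, 73.4 and 65.1 FPKM in Pro and 59.0, 51.3 and 53.8 in Ortho, a difference of -0.39 (SE 0.08, adjusted p = 0.00097). It fell from Pro to Baso by 0.51 on the log2 scale and stood at 47.8 to 52.4 FPKM in Baso and Poly. With hemoglobin left out, or with each library centred on the median of all genes, the Ortho to Pro differences of Mrpl32 (0.12 and 0.084) and Mrpl33 (0.094 and 0.0059) changed sign.

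Mrpl4 (-0.53), Mrpl44 (-0.58), Mrpl43 (-0.63), Mrpl39 (-0.67) and Mrps23 (-0.71) were lower in Ortho than in Pro by less than 1 and passed the test, but with hemoglobin left out none of these 5 large and small subunit genes did. Mrps21, the other uncalled member, was variable: 68.9, 45.7 and 47.6 FPKM in Pro, 25.7, 31.2 and 55.0 in Baso, 19.6, 24.6 and 23.2 in Poly and 23.4, 40.5 and 41.4 in Ortho. Its Baso libraries reached into the Pro range, and the difference of -0.63 between Ortho and Pro had an adjusted p of 0.059. It passed the test without Baso replicate 1, Baso replicate 3 or Ortho replicate 3, and with only the 2 stages fitted. With libraries rescaled to the same FPKM sum Mrps21 (-0.99) and Mrpl32 (-0.64) both passed.

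The promoters of the genes at both ends of this order show what the members share and where they differ. Promoter windows of 300 bases (250 before the start and 50 after it) were read from RefSeq on GRCm38.p6 for 69 of the 78 genes, 75 windows in all. The 3 short motifs below, known from promoters of genes for mitochondrial proteins, were matched letter by letter on both strands. The core of the NRF1 motif, TGCGCA, occurred in 29.3% of the members' windows, in 13.9% of the windows of all genes tested and in 7.76% of all windows in the table. The YY1 core AAGATGG occurred in 17.3%, 7.42% and 6.34%, and the ETS and GABPA core CCGGAAG in 34.7%, 18.6% and 8.86%. At least 1 of the 3 was found in 60.0% of the members' windows, 34.2% of those of genes tested and 20.4% of all. CCGGAAG and AAGATGG can share the letters AAG, so 1 stretch can count for both, and a match is a description of the sequence, not a measured binding site.

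The 250 bases before the start are printed for the 2 members with the largest and the 2 with the smallest fall that the table holds, in the direction of transcription, with motif matches in capitals. They lie at chr14:54426659-54426908 on the plus strand (Mrpl52), chr17:26123253-26123502 on the plus strand (Mrpl28), chr13:14613038-14613287 on the minus strand (Mrpl32) and chr5:31613701-31613950 on the plus strand (Mrpl33). For Mrpl32 and Mrpl33 the gene begins further upstream in GENCODE than in RefSeq, so that all of the Mrpl33 window and the part of the Mrpl32 window nearest the start lie inside the GENCODE gene.
Mrpl52: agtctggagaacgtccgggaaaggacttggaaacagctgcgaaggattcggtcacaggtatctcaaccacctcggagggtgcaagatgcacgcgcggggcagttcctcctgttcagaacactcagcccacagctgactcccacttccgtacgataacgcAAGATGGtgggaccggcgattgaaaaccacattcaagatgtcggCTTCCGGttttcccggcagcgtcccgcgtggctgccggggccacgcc
Mrpl28: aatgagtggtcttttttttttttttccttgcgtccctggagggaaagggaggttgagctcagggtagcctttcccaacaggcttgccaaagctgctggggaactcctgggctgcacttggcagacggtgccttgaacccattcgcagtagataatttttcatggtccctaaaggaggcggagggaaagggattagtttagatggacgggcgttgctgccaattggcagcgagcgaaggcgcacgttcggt
Mrpl32: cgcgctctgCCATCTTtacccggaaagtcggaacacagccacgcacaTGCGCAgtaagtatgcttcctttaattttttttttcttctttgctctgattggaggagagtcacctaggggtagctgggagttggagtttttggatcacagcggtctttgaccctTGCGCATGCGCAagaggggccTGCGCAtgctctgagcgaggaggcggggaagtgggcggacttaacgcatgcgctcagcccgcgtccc
Mrpl33: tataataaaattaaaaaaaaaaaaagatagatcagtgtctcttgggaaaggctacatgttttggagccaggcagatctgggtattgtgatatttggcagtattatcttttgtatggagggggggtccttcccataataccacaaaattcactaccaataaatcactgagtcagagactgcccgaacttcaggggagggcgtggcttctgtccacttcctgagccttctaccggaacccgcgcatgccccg

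The Mrpl52 promoter held a YY1 core that begins 91 bases before the start and an ETS core, on the other strand, 47 bases before it. The Mrpl32 promoter held 4 NRF1 cores, beginning 203, 88, 82 and 67 bases before the start, and a YY1 core on the other strand at 241. The 3 NRF1 cores nearest the start lie inside the GENCODE gene. No match to these letters was found in the 250 bases of Mrpl28 or Mrpl33. Both ends of the order thus held a promoter with matches and one without. Mrps28 is not shown.

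The families of the mitoribosome's working parts are best seen through single genes with known roles. The stalk that recruits elongation factors is formed by the products of Mrpl10 and Mrpl12, on a base to which the product of Mrpl11 belongs. Mrpl12 had 93.1, 56.6 and 77.4 FPKM in Pro and 21.1, 25.3 and 23.5 in Baso, and the 3 Ortho libraries were at 22.3, 22.3 and 23.3. It fell by 1.63 on the log2 scale in the first step (adjusted p = 7e-06) and did not move past the test afterwards. Mrpl11 fell by 1.12 in that step and Mrpl10, from 24.1 ± 1.38 to 14.9 ± 1.06 FPKM, by 0.66.

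In Ortho against Pro the 3 differences were -1.67 for Mrpl12, -1.15 for Mrpl11 and -0.74 for Mrpl10, so partners of one structure fell by different amounts. Relative to the median of the family Mrpl12 was lower by -0.41 (adjusted p = 0.015) and Mrpl10 higher by 0.52 (adjusted p = 0.00027). Mrpl12 protein has also been described as a binding partner of the mitochondrial RNA polymerase.

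The bacterial protein S18 has 3 mouse relatives, one of them, Mrps18a, in the large subunit. Mrps18b was at 27.9, 22.6 and 38.9 FPKM in Pro and 9.22, 7.30 and 6.22 in Ortho. Mrps18a was at 32.8, 33.0 and 35.7 in Pro and 16.8, 15.5 and 18.2 in Ortho. Mrps18c was at 55.8, 50.7 and 53.5 in Pro and 23.1, 22.5 and 22.8 in Ortho. No Pro library overlapped an Ortho library in any of the 3, and the differences were -1.82, -0.97 and -1.19.

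Their timing differed in the values. Mrps18b fell by 1.50 in the first step and did not pass the test in either later one. Mrps18a fell by 0.79 and then by 0.35 between Baso and Poly (adjusted p = 0.030). Mrps18c fell by 0.53 in the first step and by 0.56 in the last (adjusted p = 0.00021 and 0.00027), and its later fall departed from that of the family by -0.37 (adjusted p = 0.042).

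Other members with a known role are given by their difference between Ortho and Pro, beside the family median of -1.21. The differences were -1.23 for Mrpl41, a large subunit protein also linked to p53, -1.23 for Mrpl45, which sits at the exit of the peptide tunnel facing the inner membrane, and -1.21 for Mrps30. Mrps12, the relative of the S12 protein of the decoding centre, had -1.13. Mrpl44, which carries a ribonuclease III-like fold, had -0.58, and its value relative to the family was 0.68 (adjusted p = 0.00013). Mrpl44 shares exon sequence with Wdfy1 on the opposite strand, which had a mean of 4.91 FPKM. Mrpl58 had -0.93 with an SE of 0.31 (adjusted p = 0.018), and it was not called without Pro replicate 1 or 2 or Ortho replicate 1 or 3, nor with hemoglobin left out.

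To see which members left the common course, each library was centred on the median of the 78 genes, which takes out most of a library's scaling, though not all of it on a log2(FPKM + 1) scale. The centring itself puts about as many members above the family as below it, so the balance of the counts is not a result. The shares of all genes tested are uneven against Pro because most of those genes fell less than the family. In Baso against Pro 10 members then lay lower and 13 higher than the family (3.45% and 70.0% of genes tested). In Poly against Pro 15 were lower and 17 higher (4.6% and 74.3%). In Ortho against Pro 16 were lower and 17 higher (6.08% and 70.9%), and Mrpl52 was the only one past a difference of 1, at -1.28 (adjusted p = 9.9e-06). Between Baso and Poly 1 was lower, Mrpl22 at -0.40, and 1 higher, Mrpl19 at 0.39 (1.83% and 8.27%). Mrpl19 shares exon sequence with Gcfc2 on the opposite strand, which had a mean of 3.91 FPKM. Between Poly and Ortho 6 were lower and 6 higher (11.2% and 7.63%). No member departed between Baso and Poly without Baso replicate 2 or 3 or any 1 of the Poly libraries, and 1 did without Ortho replicate 3. Between Poly and Ortho the 12 departures came to 4, 5 and 7 without Poly replicate 1, 2 and 3, and to 5 without any 1 of the Ortho libraries.

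A contrast chosen after the steps had been seen, the first step (Baso minus Pro) less the last (Ortho minus Poly), tested the timing directly; the steps share no library. The first step was the steeper one in 56 of 78 members (25.4% of genes tested) and the last in 2 (15.8%), Mrps36 and Mrpl57. With the hemoglobin genes left out 48 had the steeper first step (18.1% of genes tested) and 3 the steeper last (21.0%), Mrpl49 besides those 2. Relative to the family, 13 members had a steeper first step (3.75% of genes tested) and 12 a steeper last step (51.5%). The balance of these 2 counts comes with centring on the members' own median.

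The 13 with a steeper first step than the family were Mrpl52, Mrpl12, Mrps28, Mrps27, Mrpl38, Mrpl16, Mrpl11, Mrpl54, Mrpl23, Mrpl37, Mrpl35, Mrpl21 and Mrps15. They comprised 10 large and 3 small subunit genes, 8 with a bacterial counterpart and 5 without, and 1 shared exon sequence with another expressed gene. Mrps27, which encodes a small subunit protein with pentatricopeptide repeats, turned upwards at the end: it was at 17.5, 10.5 and 12.5 FPKM in Pro, 4.18, 6.23 and 4.62 in Baso, 4.96, 3.85 and 5.13 in Poly and 6.02, 6.37 and 6.89 in Ortho. All Ortho libraries lay above all Poly libraries, by 0.40 on the log2 scale (adjusted p = 0.13), or 0.60 relative to the family (adjusted p = 0.030). This rise passed the test with the hemoglobin genes left out, with centring on all genes and with only the 2 stages fitted. The first step of Mrps27 was -1.26 (adjusted p = 0.00011).

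The 12 with a steeper last step than the family were Mrps36, Mrpl57, Mrpl53, Mrpl49, Mrpl51, Mrpl20, Mrps18c, Mrpl14, Mrps23, Mrps34, Mrpl4 and Mrpl18. Without centring on the family, Mrps36 and Mrpl57 alone passed the test for a steeper last step. The uncentred contrast was negative for Mrpl18, Mrpl4, Mrps34, Mrps23 and Mrpl14 (-0.32 to -0.09), a larger fall in the first step by value. It was positive for Mrps18c, Mrpl20, Mrpl51, Mrpl49 and Mrpl53 (0.03 to 0.56), a larger fall in the last step by value that did not pass the test. With the hemoglobin genes left out the contrast passed for Mrpl49 as well (0.42, adjusted p = 0.025). They comprised 8 large subunit genes, 3 small subunit genes and Mrps36, 5 with a bacterial counterpart and 6 without, and 5 shared exon sequence with another expressed gene. Their median Pro mean was 35.8 FPKM and that of the 13 early genes 39.7.

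Mrps36 fell late. It was at 35.9, 50.7 and 55.0 FPKM in Pro, 37.2, 38.3 and 41.5 in Baso, 26.3, 27.1 and 29.4 in Poly and 13.4, 11 and 14.4 in Ortho. Pro and Baso overlapped, while Baso, Poly and Ortho were each separate from the next. The steps were -0.25 (adjusted p = 0.15), -0.48 (adjusted p = 0.049) and -1.04 (SE 0.14, adjusted p = 0.00016), and it was the only member past a fall of 1 between Poly and Ortho (4.81% of genes tested). That count was 0 without Ortho replicate 2 and 2 without Ortho replicate 3 or Poly replicate 1, and the first step of Mrps36 passed the test without Pro replicate 1. Its first step turned to 0.060 with the hemoglobin genes left out and to 0.047 with centring on all genes. The 2 Mrps36 pseudogene rows stood at 0.179 to 3.5 FPKM, and reads of such near copies may be split between rows.

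Mrpl57 and Mrpl49 encode large subunit proteins without a bacterial counterpart. Mrpl57 fell mainly in the last step, Mrpl49 in the first and the last. Mrpl57 was at 22.5, 31.0 and 31.5 FPKM in Pro, 19.3, 25.7 and 21.6 in Baso, 22.8, 28.9 and 22.3 in Poly and 11.6, 11.2 and 12.9 in Ortho. Its first 3 stages overlapped and the Ortho libraries lay below all of them. The last step was -0.99 (SE 0.15, adjusted p = 0.00032).

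Mrpl49 was at 35.2, 36.3 and 36.9 FPKM in Pro, 21.8, 24.5 and 23.2 in Baso, 22.4, 24.0 and 24.4 in Poly and 10.9, 13.1 and 13.7 in Ortho. Baso and Poly overlapped and lay apart from Pro above and Ortho below. The first step was -0.62 (adjusted p = 0.00011) and the last -0.86 (adjusted p = 1.4e-05). Mrpl49 shares exon sequence with Syvn1, on the opposite strand, which had a mean of 21.5 FPKM. Mrpl51 had the same kind of course, with steps of -0.63, -0.17 and -0.82, of which the first and last passed the test.

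Mrpl53 and Mrpl20 did not pass the test in any single step but were lower in Ortho than in Pro. Mrpl53 was at 4.45, 6.68 and 10.1 FPKM in Pro and 2.41, 4.03 and 1.58 in Ortho, a difference of -1.13 (adjusted p = 0.0027). Its value from Pro to Baso was -0.09, which changed sign with the hemoglobin genes left out (0.18), with centring on all genes (0.20), without Baso replicate 1 (0.01) and without Pro replicate 3 (0.17). Mrpl53 shares exon sequence with Gm42688 on the same strand, which had a mean of 5.87 FPKM. Reads of this pair could not be told apart with certainty. Mrpl20 was at 35.9, 68.7 and 69.2 FPKM in Pro and 29.1, 28.5 and 25.4 in Ortho, a difference of -0.98 (adjusted p = 0.00075), and its first step passed the test without Pro replicate 1.

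**Figure D3:**
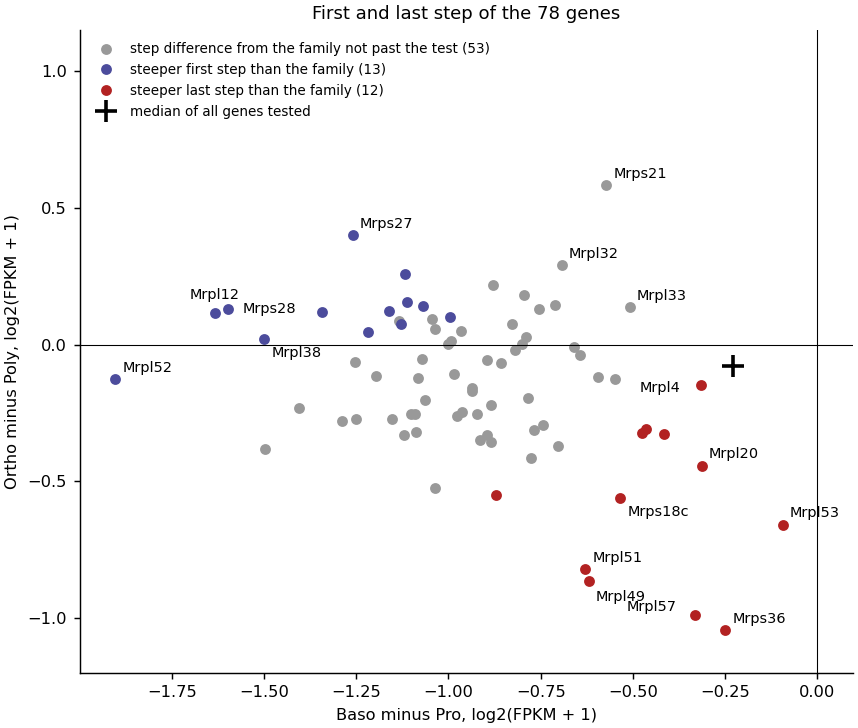
Each point is one of the 78 genes, with the difference between Baso and Pro on the horizontal axis and that between Ortho and Poly on the vertical axis, both in log2(FPKM + 1). Blue and red points are the 13 and 12 genes whose step difference departed from the family median at an adjusted p under 0.05, and the cross is the median of all genes tested (-0.23 and -0.08). All 78 lie left of 0 on the horizontal axis as deposited, although Mrpl53 and Mrps36 cross it with the hemoglobin genes left out.

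**Figure D4:**
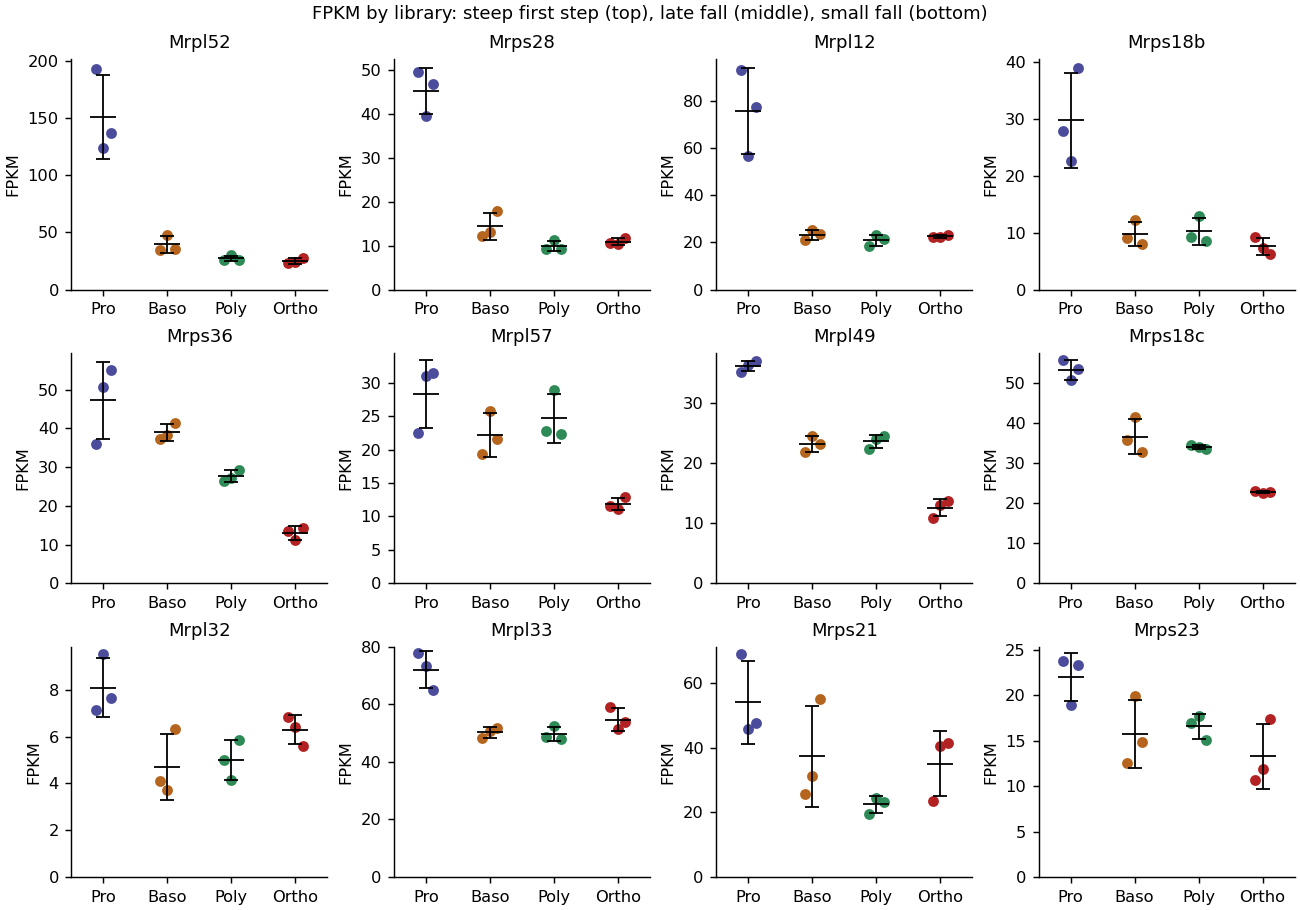
FPKM by library for 12 members, with the mean and SD of 3 libraries in black and the vertical axis starting at 0. Mrpl52, Mrps28, Mrpl12 and Mrps18b drop between Pro and Baso. Mrps36, Mrpl57, Mrpl49 and Mrps18c drop between Poly and Ortho, and Mrpl49 and Mrps18c drop between Pro and Baso as well. Mrpl32, Mrpl33, Mrps21 and Mrps23 differ by less than 1 on the log2 scale between Ortho and Pro. The differences of Mrpl32 and Mrpl33 turn positive with the hemoglobin genes left out.

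The members' longest annotated transcripts had a median of 1867 bases, against 2934 for all genes tested, and a median GC content of 49.8%, against 49.6%. They lay on 17 chromosomes, 11 of them on chromosome 11 and 8 on chromosome 17. Over the 78 genes, which are not independent replicates, the Pearson correlation of the Ortho to Pro difference was 0.16 with log10 length, -0.16 with GC content and -0.43 with the Pro level itself, which shares its libraries with the difference. The Spearman values were 0.13, -0.13 and -0.40. Mrps11 and Mrpl46 lie on opposite strands and share exon sequence.

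The rest of the mitochondrial translation system was read from lists of genes by role. Counts and differences for these lists are for FPKM as deposited, except where hemoglobin is said to be left out. Among mitoribosomal proteins with other names all 5 were lower in Ortho than in Pro (53.2% of genes tested), with a median of -1.32. Dap3, a GTP-binding small subunit protein first described in cell death, was at 69.1 ± 6.64 FPKM in Pro and 16.7 ± 1.62 in Ortho, a difference of -1.99 (adjusted p = 2e-08). Aurkaip1, another small subunit protein, changed least, from 41.9 to 29.7 FPKM (-0.49, adjusted p = 0.0018). The member Mrpl4, with a similar difference (-0.53), was no longer called with the hemoglobin genes left out.

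Of 25 mitoribosome assembly factors 22 were lower in Ortho than in Pro and 1 higher (53.2% and 22.7% of genes tested). Their median was -0.66, but 13 were lower once hemoglobin was left out (34.8% of genes tested). Mpv17l2, an assembly factor of the inner membrane, fell most, from 42.9 to 11.5 FPKM (-1.81, adjusted p = 5.5e-08). Rbfa, which helps the small subunit mature, was at 43.1 and 32.1 FPKM (-0.41, adjusted p = 0.012). The member Mrpl33, with a similar difference (-0.39), changed sign with the hemoglobin genes left out. The assembly factor that rose was Mrm1, a 2'-O-methyltransferase of the large rRNA, from 23.1 FPKM in Pro to 47.1 in Ortho (1.01, adjusted p = 8e-06), with 0.83 of this between Poly and Ortho.

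Of 15 translation factors and regulators 14 were lower (53.2% of genes tested), with a median of -1.09. Tufm, the mitochondrial elongation factor Tu, was at 34.8 FPKM in Pro and 14.4 in Ortho (-1.21, adjusted p = 5.1e-06), and Gfm1, the elongation factor G1, had the largest fall (-1.51). Oxa1l, which inserts the new proteins into the inner membrane, was at 32.4 and 14.7 FPKM (-1.09), and Lrpprc, which stabilises mitochondrial mRNA, at 30.9 and 16.9 (-0.82). Mtrf1, a release factor homologue, was not called (-0.07, adjusted p = 0.66).

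Of 10 genes for transcription and replication of mitochondrial DNA 7 were lower (53.2% of genes tested), with a median of -0.79. Twnk, the replicative helicase, fell most (-1.45, adjusted p = 6e-07), and it shares exon sequence with Mrpl43 on the opposite strand. Polg, the DNA polymerase, was at 29.4 and 14.6 FPKM (-0.96), the single-strand binding protein Ssbp1 at 25.2 and 15.6 (-0.66) and the packaging and transcription factor Tfam at 13.4 and 5.57 (-1.13). Polg2, the accessory subunit of the polymerase, had 0.16 (adjusted p = 0.51).

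Import and matrix genes were all lower, 17 of 17 (53.2% of genes tested), with a median of -1.43 as deposited. All 17 stayed called with hemoglobin left out (34.8% of genes tested). Phb2, a prohibitin of the inner membrane, fell from 278 to 67.4 FPKM (-2.03, adjusted p = 2.1e-09), Hspd1, the matrix chaperonin, from 231 to 61.3 (-1.88) and Vdac3, an outer membrane channel, from 128 to 49.3 (-1.35). The smallest difference was that of Tomm22, a receptor of the outer membrane translocase (-1.12).

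The messages that the mitoribosome translates were lower as well. All 13 mRNAs encoded in mitochondrial DNA were lower in Ortho than in Pro (53.2% of genes tested), with a median of -1.15. With hemoglobin left out 9 were lower (34.8% of genes tested). mt-Co1, a subunit of cytochrome c oxidase, was at 5723 FPKM in Pro and 2848 in Ortho (-0.97, adjusted p = 0.00028), mt-Atp6, of ATP synthase, at 2809 and 1379 (-0.94, adjusted p = 0.0032), and mt-Nd1, of complex I, had the largest difference (-1.49, adjusted p = 8.4e-06). The 2 mitochondrial rRNAs went the other way: mt-Rnr1 was at 516 FPKM in Pro and 731 in Ortho (0.53, adjusted p = 0.0057), and mt-Rnr2 at 587 and 1020.2 (0.80, adjusted p = 6.2e-05). How rRNA was removed or retained in these libraries bears on these 2 values and was not tested.

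**Figure D5:**
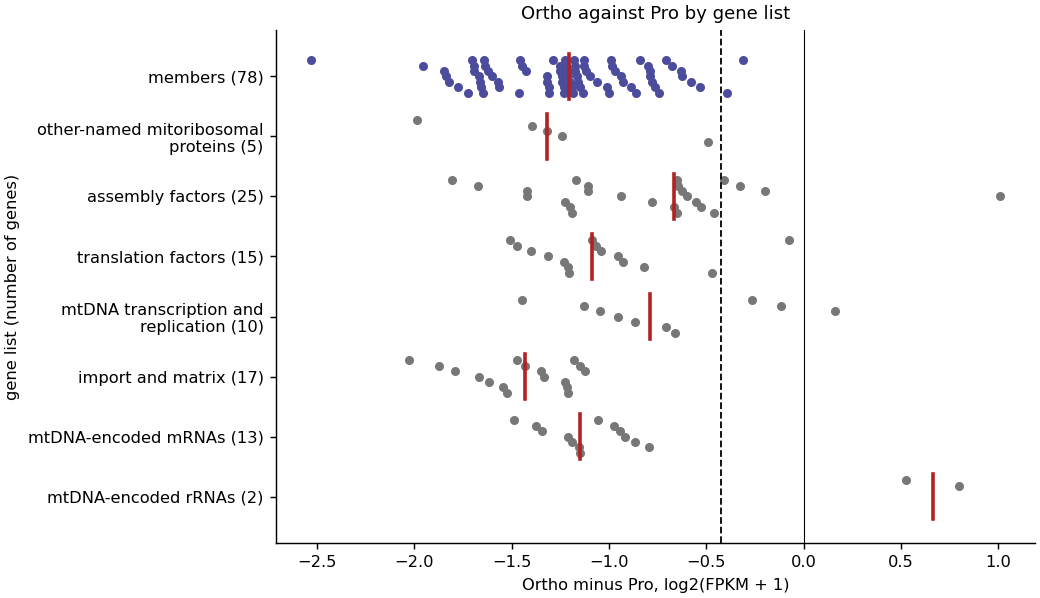
Difference between Ortho and Pro in log2(FPKM + 1) for the 78 members and 7 lists of other genes of mitochondrial translation, with 1 point a gene, red bars at the list medians and a dashed line at the median of all genes tested (-0.42). The lists of mitochondrial proteins and mRNAs have medians from -1.43 to -0.66, the 2 rRNAs lie above 0, and the members range from -2.53 (Mrpl52) to -0.31 (Mrpl32, above 0 with the hemoglobin genes left out).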

How the data were processed

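The deposited table holds FPKM values for 12 libraries. According to the labels and the study's methods, the authors trimmed reads with cutadapt and Trimmomatic, aligned them to mm10 with HISAT2 and counted with featureCounts; the tool that made the deposited FPKM, its annotation and all versions are not given in the sources used here. The labels name Trizol and an NEBNext Ultra kit, the methods a KAPA kit; strand-specific counting is not stated. Whole reads could not be recovered from the values, so depth is relative only.

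Groups followed the sample titles (2 Ortho libraries have no other stage label). One row with a repeated identifier was dropped. Genes with 1 FPKM or more in at least 3 libraries were tested on log2(FPKM + 1) with limma 3.58.1 (R 4.3.3; lmFit, eBayes with trend), with all 12 libraries in 1 model, 5 contrasts and Benjamini-Hochberg adjustment over 12994 genes; the same was done after centring on the members' median. The pipeline was tested on simulated data. The authors tested with DESeq2, which needs counts.

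The members and gene lists were chosen with earlier results of these data known, so their counts are descriptions beside those of all genes. The genes named were the 5 highest and 5 lowest by mean FPKM, the 8 lowest and 8 highest differences in Ortho against Pro, the 3 lowest and 3 highest of each step, and a list by role; from the other lists, the 3 with the highest mean FPKM and both extremes. The other members of the step contrast, Mrpl22 and Mrpl19 were named after their values were seen. Annotation came from GENCODE M21 (GRCm38), in which all 78 members were found, and promoters from RefSeq (GRCm38.p6). Proteins were not analysed here.

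The replicate numbers of Baso, Poly and Ortho marked libraries that deviated together (correlations of 0.16 to 0.32 over genes between same-numbered libraries); those of Pro did not (0.01 to 0.10).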

Additional observations from a re-analysis of the deposited data

How the results depend on the processing

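The family medians against Pro stayed negative under every alternative run (pseudocount, filter, trend, scaling, stages fitted, replicate block and each library left out), while their size followed the scaling. Values are given in the order Baso, Poly and Ortho against Pro. The counts in this section show how the calls moved with the setting. Except where a share is printed, none of all genes tested stands beside them. An excess over all genes therefore cannot be read from them. With each library centred on the median of all genes, 7, 28 and 24 members fell by at least 1 and the medians were -0.63, -0.82 and -0.81. Without hemoglobin genes these were 7, 20 and 20 (3.24%, 5.71% and 8.88% of genes tested), with -0.63, -0.75 and -0.75. With a pseudocount of 5 they were 16, 26 and 37, with -0.73, -0.83 and -0.95. Rescaling to the same FPKM sum gave 49 such falls in Baso and medians of -1.10, -1.24 and -1.55, and a pseudocount of 0.1 a Poly median of -1.16. The family's share without hemoglobin was 0.558%, 0.354%, 0.317% and 0.309% from Pro to Ortho. In Ortho 13 assembly factors were then lower (34.8% of genes tested).

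The later steps depended on the settings. Between Baso and Poly 11 members were lower with centring on all genes, 8 with a mean FPKM of at least 5, 1 with no filter, 2 with no variance trend, 2 with the same sum and 13 with the replicate block over Baso, Poly and Ortho. Between Poly and Ortho 6 were lower and 5 higher with centring on all genes (median 0.026), 6 and 4 without hemoglobin (median 0.010), and 27 were lower with the same sum (median -0.30). A single member (1) was higher with only the 2 stages compared and with the replicate block. Falls of at least 1 there numbered 0 with centring, without hemoglobin and with a pseudocount of 5, 2 with a pseudocount of 0.1 and 3 with the same sum. The replicate block over all 12 libraries moved no count by over 1.5 times.

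Single genes changed sign with centring on all genes and without hemoglobin: Mrpl33 (0.0059 and 0.094) and Mrpl32 (0.084 and 0.12) in Ortho against Pro, and Mrpl53 (0.20 and 0.18) and Mrps36 (0.047 and 0.060) in Baso against Pro. Mrpl53 did so as well without Baso replicate 1 (0.01) and without Pro replicate 3 (0.17), its range with each library left out being -0.35 to 0.17.

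With each library left out in turn, members lower numbered 66 to 71 in Baso, 72 to 76 in Poly and 75 to 77 in Ortho against Pro, 1 to 11 between Baso and Poly and 6 to 13 between Poly and Ortho, where 0 to 1 were higher. Falls of at least 1 there numbered 0 to 2. Departures from the family numbered 0 to 2 between Baso and Poly and 4 to 12 between Poly and Ortho. Absolute depth was unknown, so no counting error could be given.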
